A study of Mus musculus with 6 samples.

Results

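The set described here was 45 genes of motile cilia and multiciliated cells, chosen by name and read on every probe set annotated with that single symbol. Of these, 44 had such a probe set (62 probe sets in all), out of 18193 genes on the array, and only Mcidas had none. The tissue was the choroid plexus of the lateral ventricles, taken whole from 3 male CD1 mice aged 18 months and 3 aged 2 months, CD1 being an outbred stock. Each array read both plexuses of 1 mouse, so that the replicates of an age are separate animals, and the labels named no genotype or treatment. Age was therefore the only labelled difference between the groups. Values are log2 of the deposited normalized intensities, and a difference is the mean at 18 months minus the mean at 2 months.

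Motile cilia beat by means of axonemal dyneins, motor complexes that slide the microtubule doublets of the axoneme, while radial spokes and a central apparatus regulate the beat. Cells that build many cilia switch on Mcidas, Foxj1 and the Rfx transcription factors, and intraflagellar transport carries the parts into the growing cilium. In the brain ventricles, ependymal cells carry tufts of beating cilia that move cerebrospinal fluid, and the epithelial cells of the choroid plexus bear tufts of cilia as well.

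Most of the cilium genes had a lower mean at 18 months than at 2 months, by a modest amount, and none passed the test over all genes. Of the 44 genes, 41 had a mean log2 intensity of at least 4.92, the 40th percentile of all probe sets, and were tested with limma among 12681 genes. The difference was below 0 for 34 of the 41, against 49.6% of all genes tested. Their median difference was -0.46, beside a median of 0.0032 over all genes tested. At an unadjusted limma p under 0.05, 10 of the 41 were lower at 18 months (24.4%, against 3.03% of all genes tested) and 0 were higher (against 4.02%). At a limma adjusted p under 0.05, 0 members were called and 0% of all genes tested, and the lowest adjusted p of a member was 0.228. A log2 difference of -1 or lower was measured for 7 of the 41 members and for 1.56% of all genes tested. Among these 7, Fam183b, Tekt2 and Ccdc40 had a mean at 18 months under 4.92 and were tested only through their level at 2 months. Fam183b and Ccdc40 were also among the 10 lower at an unadjusted limma p under 0.05. Another of the 7, Ak7, differed by -0.57 without mouse 2 at 2 months.

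By role, the median difference was -0.31 for the 3 regulators tested, -0.40 for the 7 axonemal dyneins, -0.16 for the 8 radial spoke and tektin genes and 0.099 for the 2 intraflagellar transport genes. It was -0.29 for 3 genes of the central apparatus, -0.66 for 3 ruler and nexin-dynein regulatory complex genes and -0.73 for 15 other members. The differences between classes were not tested.

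For 14 members no value of one age fell within the range of the other. All 3 mice at 18 months lay below all 3 at 2 months for 13 members (against 6.25% of all genes tested), and above them for 1 (against 7.06%). For 4 members, Fam183b, Tekt2, Ccdc40 and Hydin, the mean at 18 months lay under the filter, so that they were tested only through their level at 2 months. Without any filter the median over all 44 genes was -0.41, and 11 of them were lower at an unadjusted p under 0.05, against 2.84% of all genes in that fit. Of the 62 probe sets, 50 had a lower mean at 18 months, and of the 52 above the filter, 43 did. The share over all probe sets was not computed.

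**Figure D1:**
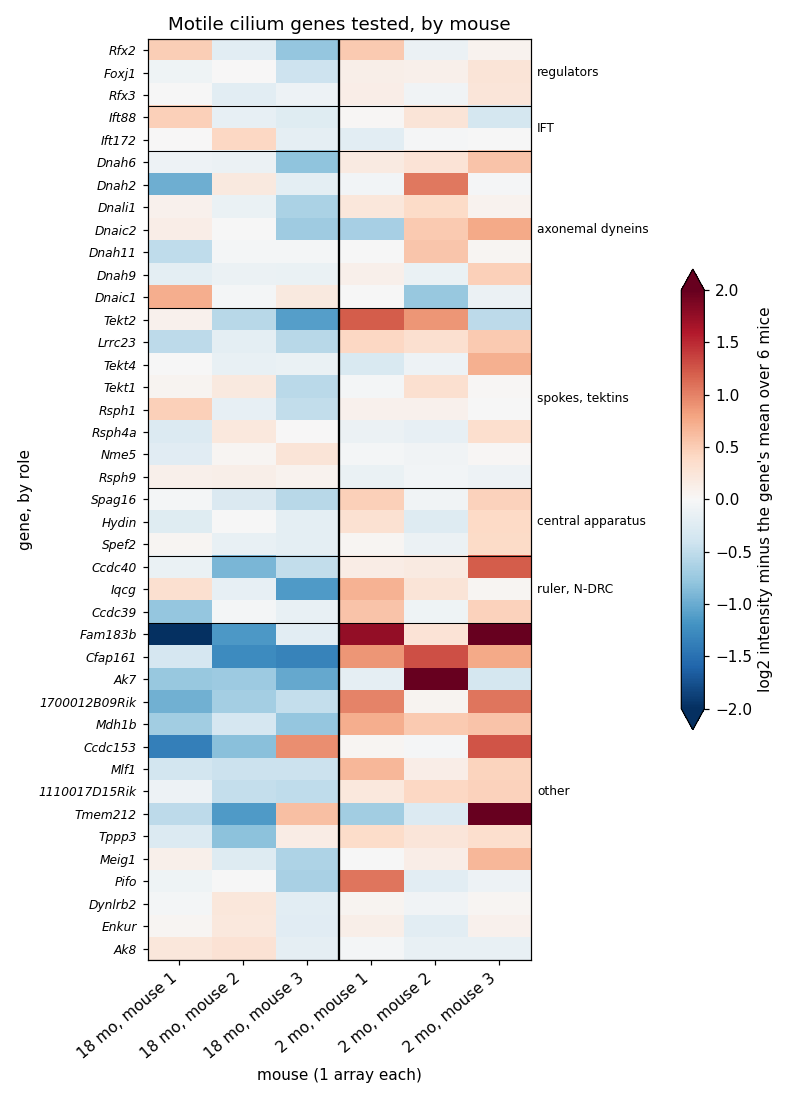
Log2 intensity of each tested motile cilium gene (row, by role) in each mouse (column), as the difference from that gene's mean over the 6 mice; blue is lower and red higher, and the colour scale ends at 2 in both directions. Blue prevails in the 3 columns at 18 months, most in mouse 3, and red in those at 2 months, most in mouse 3.

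The mice did not contribute equally. Mouse 3 at 18 months held the lowest value of 22 of the 41 genes, while it was lowest for 19.8% of all genes tested. Mouse 3 at 2 months held the highest value of 17 genes, against 14.5% of all genes tested. As a level for the whole set, the median over the 41 genes of the log2 value minus the gene's mean was -0.091, -0.15 and -0.25 in mice 1, 2 and 3 at 18 months. At 2 months it was 0.11, 0.093 and 0.34. The ages did not overlap in this level, which describes the chosen genes and was given no test. Leaving out mouse 3 at 18 months brought the median difference to -0.30, the smallest value with any mouse left out, and 9 members were then lower at an unadjusted p under 0.05, against 2.64% of all genes in that fit.

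Among the regulators, Foxj1, the forkhead factor that drives motile cilium genes, had log2 intensities of 8.72, 8.81 and 8.39 at 18 months. At 2 months it had 8.91, 8.90 and 9.06. All 3 older mice lay below the younger ones, but by little, and the difference was -0.31 (SE 0.18, 95% confidence interval -0.75 to 0.12, limma adjusted p = 0.779). Without mouse 3 at 18 months it was -0.19. Rfx3, a factor that binds the promoters of many cilium genes, had 11.69, 11.49 and 11.59 against 11.83, 11.63 and 11.94. Its ranges overlapped and the difference was -0.21 (SE 0.17). The dimmer probe set of this gene gave -0.18. Rfx2, a close relative of Rfx3, had 8.38, 7.68 and 7.12 at 18 months against 8.41, 7.77 and 7.95 at 2 months. This spread of 0.63 (SD, n = 3) among the older mice was larger than the difference of -0.32 (SE 0.35), which was -0.014 without mouse 3 at 18 months. The 3 dimmer probe sets of Rfx2 gave -0.0095, -0.099 and -0.018. No regulator was measured as higher at 18 months.

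Proteins of the Rfx family bind the X-box, an inverted repeat whose arm is often GTTGCC. RefSeq promoters (GRCm38.p6), from 250 bases before to 50 bases after a gene's start, were on hand for 40 of the 45 genes. The arm GTTGCC, read on both strands, occurred in the promoters of 25 of these 40 genes (62.5%). It occurred in those of 14.1% of all 27025 genes with a promoter and 15.4% of the genes tested. Other motile cilium genes held it in 42 of 120 cases (35.0%). Markers of the plexus epithelium held it in 3 of 8 cases and markers of neurons in 3 of 7 (42.9%). Of 34 matches in the 25 genes, 20 began within 100 bases before the start, 9 farther upstream and 5 after it. All 3 regulators with a promoter here, Mcidas, Rfx2 and Rfx3, held the arm, as did both intraflagellar transport genes, but only 1 of 8 axonemal dynein genes did. The following windows of 30 bases show a match each, upstream of the start and nearest to it where there was one, with the arm in capitals as GTTGCC, or as GGCAAC where it lies on the opposite strand. They run 5′ to 3′ along the gene. The first 8 belong to members lower at an unadjusted p under 0.05, the next 2 to Rfx regulators, and the last 2 to intraflagellar transport genes, whose differences were near 0. The matches of Rfx3, Ift88 and Ift172 begin at or after the start, and the others before it.
Lrrc23, chr6:124779749-124779778, minus strand: cgtcccgcccctGTTGCCataacaacaata
Spag16, chr1:69826855-69826884, plus strand: actaggcaacgcGTTGCCgtagtaactgcg
Mdh1b, chr1:63730329-63730358, minus strand: gtacccgccgcgGTTGCCaggaaaccgtga
Cfap161, chr7:83794861-83794890, minus strand: cctggtcgtcatGGCAACgaagcacgctaa
1700012B09Rik, chr9:14771091-14771120, minus strand: agcaggtaggctGTTGCCtgcacccagggc
Mlf1, chr3:67373980-67374009, plus strand: gtgtttacagagGTTGCCatagcagccgag
1110017D15Rik, chr4:41507758-41507787, minus strand: aatgtgttgcccGGCAACaactcgaaacaa
Fam183b, chr11:58801959-58801988, minus strand: agaggaacatccGTTGCCtggaaactgtag
Rfx2, chr17:56831107-56831136, minus strand: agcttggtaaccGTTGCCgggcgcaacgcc
Rfx3, chr19:28011118-28011147, minus strand: gttatagcaaccGTTGCCttgtgaatcaag
Ift88, chr14:57424080-57424109, plus strand: ggagtcgcgcctGGCAACggctgggcgtcc
Ift172, chr5:31291097-31291126, minus strand: tgtcgcactcacGTTGCCtgtgcgtcagcg

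In 1110017D15Rik both arms are present, the letters gttgcc ending 1 base before the capitals. The arm was present for 8 of the 10 members lower at an unadjusted p under 0.05 and for 15 of the other 26 tested members with a promoter. The median difference was -0.51 for the 23 tested members with the arm (20 below 0) and -0.52 for the 13 without it (10 below 0). None of these contrasts was tested. The full inverted repeat was searched as GTTNCCNNGGNAAC, which fixes the spacing of the arms. A repeat at another spacing, like that of 1110017D15Rik, was not counted. The printed windows of Mdh1b and Fam183b also hold GTTGCC and then, with 1 base between, ggaaac, which fits GGNAAC. They were not counted either. The repeat in the searched form occurred in 1 of the 40 genes against 0.529% of all genes. This was Pifo, whose window shows the whole repeat in capitals.
Pifo, chr3:106001496-106001525, minus strand: gcggttccGTTCCCTTGGCAACgtagtaca

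The forkhead sequence GTAAACA occurred in 2, Ak7 and Mlf1 against 4.05% of all genes. The looser or stricter forms GTTNCCNNGNNAAC, GTTNCCNNGGNNAC, GTTNCCATGG and GTTGCCATGG, which overlap the others, occurred in 2, 2, 1 and 0 of the 40 genes, against 0.788%, 1.49%, 1.33% and 0.633% of all genes. A match is a run of letters in this window, and binding was not measured.

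The axonemal dyneins had a median difference of -0.40 over 7 tested genes, 6 of them below 0. Dnah6, an inner-arm heavy chain, had 8.30, 8.27 and 7.59 at 18 months against 8.57, 8.66 and 8.96 at 2 months. The ages did not overlap, and the level at 2 months was 1.60-fold higher (difference -0.68, SE 0.25, limma adjusted p = 0.682). Dnah11, an outer-arm heavy chain, had 8.04, 8.51 and 8.52 against 8.55, 9.11 and 8.59. Its ages were separate too, but by a gap far smaller than the spread within an age (difference -0.39, SE 0.24). Dnali1, an inner-arm light intermediate chain, had 8.20, 7.98 and 7.49 against 8.35, 8.50 and 8.18, and the ranges barely overlapped (difference -0.46, SE 0.23). Its other probe set gave -0.60 with separate ranges. Dnaic1, an outer-arm intermediate chain, went against the others. It had 8.88, 8.10 and 8.34 at 18 months against 8.13, 7.38 and 8.03 at 2 months, a difference of 0.60 (SE 0.29), and its second probe set gave 0.59. Its outer-arm partner Dnaic2 differed by -0.40 (SE 0.42) and reversed to 0.015 when mouse 3 at 18 months and mouse 2 at 2 months were left out together. The heavy chains Dnah2 and Dnah9 differed by -0.65 (SE 0.42) and -0.30 (SE 0.20). Several of these differences moved when a single mouse was left out. Without mouse 3 at 18 months Dnah6 was at -0.44, Dnali1 at -0.26 and Dnaic2 at -0.14, and without mouse 2 at 2 months Dnah11 was at -0.21 and Dnaic1 at 0.36. Dnah5, the main outer-arm heavy chain of motile cilia, was below the filter, at 4.02, 3.62 and 3.64 against 4.61, 3.91 and 4.02.

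**Figure D2:**
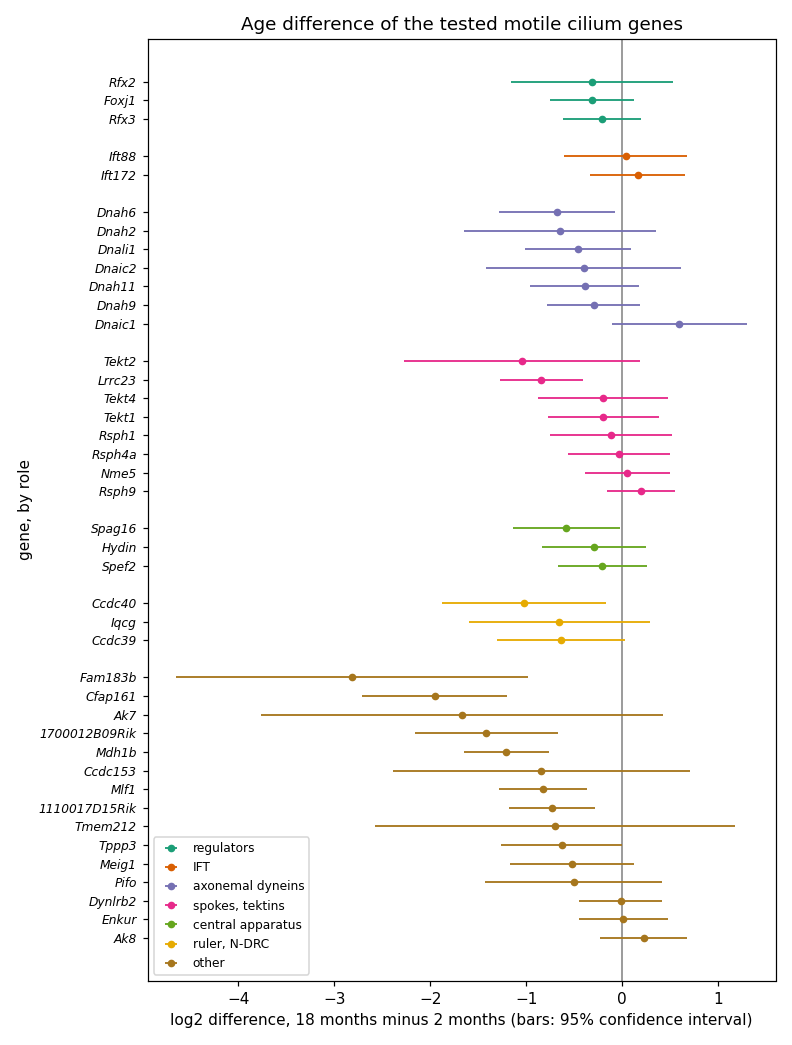
Log2 difference (18 months minus 2 months, x axis) of each tested motile cilium gene with its 95% confidence interval from limma (3 mice per age), grouped and coloured by role (IFT, intraflagellar transport; N-DRC, nexin-dynein regulatory complex). Most points lie left of 0, down to -2.81 for Fam183b, while the spoke head genes and the intraflagellar transport genes lie close to 0.

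Of the 8 radial spoke and tektin genes, 6 had a difference below 0 and 1 was lower at an unadjusted p under 0.05. This was Lrrc23, which encodes a radial spoke protein. It had 8.72, 9.05 and 8.69 at 18 months against 9.66, 9.56 and 9.77 at 2 months. The gap between the ages exceeded the spread within either, at a difference of -0.84 (SE 0.18, 95% confidence interval -1.27 to -0.41, limma adjusted p = 0.439). The spoke head genes Rsph1 and Rsph4a differed by -0.11 (SE 0.26) and -0.036 (SE 0.22), and Nme5, whose product associates with the spokes, by 0.053 (SE 0.18). Rsph9, also a spoke head gene, was the only member with all 3 older mice above the younger ones. It had 10.99, 11.02 and 10.97 against 10.77, 10.84 and 10.79, a difference of 0.19 (SE 0.15) that was small but larger than the spread within an age (SD 0.028 and 0.040, n = 3 each). Tektins are filament proteins of the doublet wall. Tekt1 had 9.55, 9.70 and 8.97 against 9.46, 9.82 and 9.53, and its difference of -0.20 (SE 0.24) reversed to 0.024 without mouse 3 at 18 months. Tekt2 had 5.48, 4.83 and 4.29 against 6.59, 6.27 and 4.86, a difference of -1.04 (SE 0.51) within wide and overlapping ranges. Tekt4 differed by -0.20 (SE 0.28).

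Genes of the central apparatus had a median difference of -0.29 over 3 tested genes. Spag16 had 7.46, 7.21 and 6.94 at 18 months against 7.98, 7.43 and 7.96 at 2 months, a difference of -0.58 (SE 0.23, limma adjusted p = 0.706). Its 4 probe sets disagreed, with 0.92 for the second, -0.12 for the third and -0.086 for the dimmest, and the mean of all probe sets gave 0.032. Hydin, a giant central apparatus protein, had 4.79, 5.03 and 4.83 against 5.34, 4.77 and 5.43 (difference -0.29, SE 0.22), near the filter in every mouse. Spef2 had 7.71, 7.52 and 7.48 against 7.71, 7.56 and 8.06 (difference -0.21, SE 0.20). Spag17 and Spag6, below the filter, gave 0.63 and -0.12.

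The ruler proteins Ccdc39 and Ccdc40 set the spacing of inner arms and spokes along the doublet, and Iqcg is a subunit of the nexin-dynein regulatory complex that links doublets. These genes had differences of -0.64 (SE 0.28), -1.03 (SE 0.36) and -0.66 (SE 0.39). Ccdc40 had 5.15, 4.38 and 4.79 at 18 months against 5.43, 5.47 and 6.51 at 2 months, with separate ages (limma adjusted p = 0.672), and differed by -0.67 without mouse 3 at 2 months. Ccdc39 had 8.28, 9.02 and 8.91 against 9.63, 8.97 and 9.52, and the ages overlapped. A second bright probe set of Ccdc39 gave -0.69 with separate ages, while the dimmest, just under the filter, gave 1.05. Iqcg had 8.71, 8.24 and 7.27 against 9.10, 8.65 and 8.43, and mouse 3 at 18 months stood far below the others. Without it the difference of Iqcg was -0.25.

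Both intraflagellar transport genes had differences near 0. Ift88, a component of the anterograde train without which cilia do not form, had 8.38, 7.75 and 7.66 at 18 months against 7.94, 8.17 and 7.57 at 2 months. The difference was 0.038 (SE 0.27), with a 95% confidence interval from -0.60 to 0.68. Ift172, another subunit of that train, had 8.04, 8.45 and 7.84 against 7.82, 8.01 and 8.02, a difference of 0.16 (SE 0.21, interval -0.34 to 0.66). The intervals leave room for a difference as large as that of many axonemal genes. The signs were not stable, since Ift88 gave -0.19 without mouse 1 at 18 months and -0.13 without mouse 3 at 2 months, and Ift172 gave -0.0094 without mouse 2 at 18 months.

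**Figure D3:**
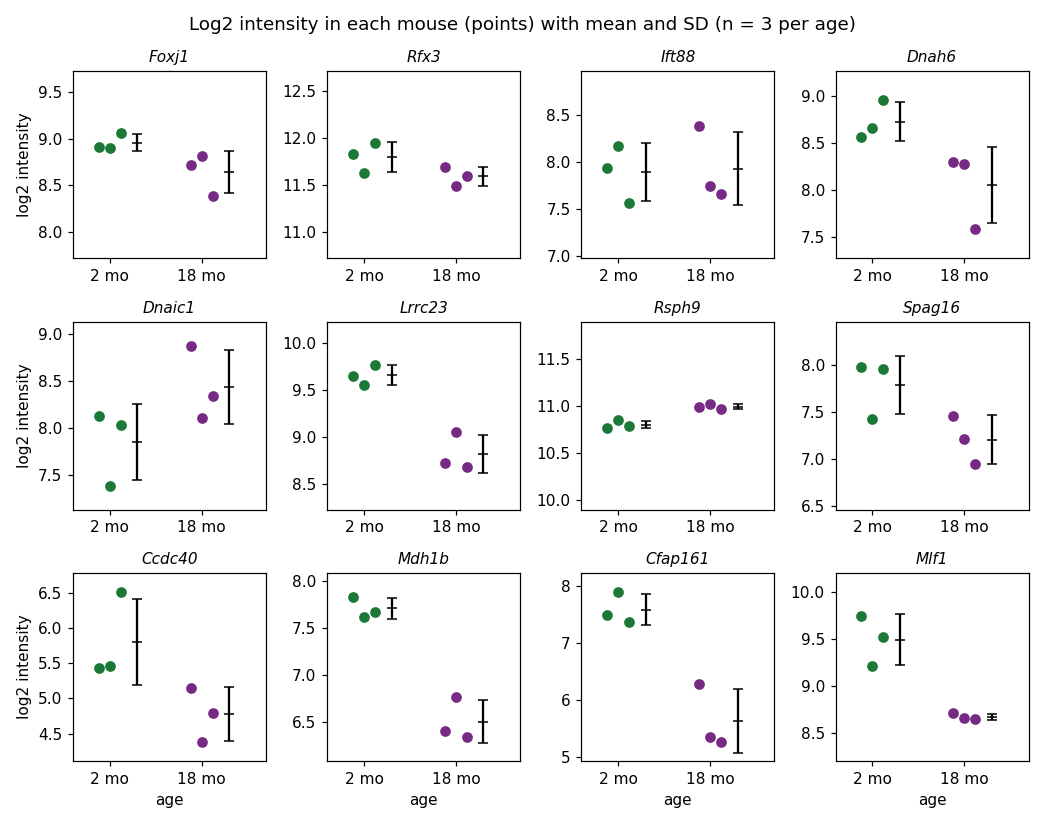
Log2 intensity of 12 motile cilium genes in each mouse (points; green, 2 months; purple, 18 months), with mean and SD (n = 3 per age) beside them; each y axis has its own range of at least 2 log2 units. Lrrc23, Mdh1b, Cfap161 and Mlf1 have widely separate ages, Foxj1 a small gap, Rsph9 a small gap upward, and Ift88 none.

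The largest differences belonged to members outside the classes above. Mdh1b, which encodes a protein related to malate dehydrogenase, had 6.40, 6.76 and 6.33 at 18 months against 7.83, 7.62 and 7.67 at 2 months. This was the smallest p among the members (difference -1.21, SE 0.19, 2.31-fold higher at 2 months, limma adjusted p = 0.228). Cfap161, a protein of cilia and flagella, had 6.28, 5.35 and 5.26 against 7.49, 7.89 and 7.37, a 3.88-fold higher level at 2 months (difference -1.96, SE 0.32, limma adjusted p = 0.236). Both genes had separate ages with a gap wider than the spread within either age.

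The clone-named gene 1700012B09Rik had 5.44, 5.73 and 5.93 at 18 months against 7.40, 6.47 and 7.47 at 2 months (difference -1.41, SE 0.31, limma adjusted p = 0.470). Mlf1, the gene for myeloid leukemia factor 1, had 8.71, 8.66 and 8.65 against 9.75, 9.21 and 9.52 (difference -0.82, SE 0.19, limma adjusted p = 0.494). The 3 older mice were close together (SD 0.034) and lay below every younger mouse. In all 15 alternatives run for single genes the differences of Mdh1b, Cfap161, 1700012B09Rik, Mlf1 and Lrrc23 stayed below 0. Their limma adjusted p ranged from 0.173 to 0.789. Among these alternatives, the other filters and the replicate block cannot change a gene's difference, only its p.

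A few further members were picked out after their values were seen. Fam183b had the largest difference. It read 3.10, 4.81 and 5.74 in the older mice against 7.72, 6.23 and 8.14 in the younger ones (difference -2.81, SE 0.77, limma adjusted p = 0.578). Its mean at 18 months, 4.55, lay at the level of the highest bacterial control probe set (4.51). The gene 1110017D15Rik had 10.62, 10.25 and 10.22 against 10.95, 11.14 and 11.19, a difference of -0.73 (SE 0.19, limma adjusted p = 0.568). Tppp3, a tubulin-binding protein, had 6.94, 6.40 and 7.37 against 7.59, 7.46 and 7.55 (difference -0.63, SE 0.26, and -0.38 without mouse 2 at 18 months). Ak7, an adenylate kinase of motile cilia, had 8.59, 8.63 and 8.33 at 18 months against 9.17, 12.39 and 8.99 at 2 months. Its difference of -1.67 (SE 0.87) rested on mouse 2 at 2 months and was -0.57 without it. The remaining members were Meig1 (-0.52, SE 0.27), Pifo (-0.51, SE 0.38), Ak8, another adenylate kinase (0.22, SE 0.19), Dynlrb2, a dynein light chain of the roadblock family (-0.018, SE 0.18), and Enkur (0.011, SE 0.19). Their ages overlapped in each case.

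Tmem212 and Ccdc153, used as markers of ependymal cells, followed another pattern across mice. Tmem212 had 4.91, 4.30 and 6.03 at 18 months against 4.73, 5.15 and 7.46 at 2 months, and Ccdc153 had 5.84, 6.37 and 8.14 against 7.24, 7.18 and 8.46. Both were highest in mouse 3 of either age, as were Fam183b, 1700012B09Rik and Nme5. Their differences were -0.70 (SE 0.78) and -0.85 (SE 0.65), and both moved with single mice. Leaving out 1 mouse at a time, that of Tmem212 ran from -1.22 to 0.14 (without mouse 3 at 2 months). That of Ccdc153 was -0.37 without mouse 1 at 18 months, -0.43 without mouse 3 at 2 months and -1.52 without mouse 3 at 18 months.

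The same 2 mice held the most brain signal. The level of 12 neuron markers, again a median of log2 values minus each gene's mean, was -0.81, 0.017 and 1.00 in the older mice, and the younger mice had -0.13, -0.57 and 0.71. The level of 11 oligodendrocyte markers was -0.47, 0.015 and 0.98 against 0.10, -1.12 and 0.67. Snap25 of neurons read 10.43, 11.63 and 12.29 against 11.10, 10.23 and 12.30, and Mbp of oligodendrocytes 10.21, 11.14 and 11.79 against 11.23, 10.01 and 11.85. Both ages thus spanned a wide and overlapping range of brain signal. Ependymal markers outside the axoneme (9 genes, among them Cd24a and S100b) had 0.019, 0.040 and 0.49 against -0.081, -0.24 and 0.21. Their median difference was 0.033, with 4 of 9 below 0 and 0 lower at an unadjusted p under 0.05. Cd24a differed by -0.00071 (SE 0.25) and S100b by 0.60 (SE 0.37). Some of these markers are also expressed by astrocytes, whose own 7 tested markers had a median difference of 0.13, with 3 below 0 and a range from -0.31 for Slc1a3 to 0.83 (SE 0.71) for Gfap. With the mean deviation of the neuron markers as a covariate, the median difference of the cilium genes was -0.45. In that fit 13 of 41 were lower at an unadjusted p under 0.05, against 3.37% of all genes. This covariate had nearly the same mean at both ages, so it could move the differences only a little. Markers of the plexus epithelium lay close together, at -0.059, -0.031 and -0.050 against 0.026, 0.050 and 0.0067 over 12 genes, 8 of them below 0, and this level too did not overlap between the ages. Among these markers Ttr differed by -0.17 (SE 0.15) and Kl by 0.062 (SE 0.16). Chosen after their values were seen, Aqp1 had the largest difference (0.64, SE 0.24), with all older mice above the younger and higher at an unadjusted p under 0.05, while Kcne2 (-0.31), Sostdc1 (-0.23) and Calml4 (-0.11) had, like Ttr, all older mice below. Markers of fibroblasts and vessels had a median difference of -0.46, like the cilium genes, with 9 of 12 below 0 and 1 lower at an unadjusted p under 0.05. Their level was -0.37, -0.33 and 0.13 against -0.10, 0.26 and 0.21, and the ages overlapped. Markers of macrophages had a median difference of 0.52, with 10 of 12 above 0 and 3 higher at an unadjusted p under 0.05, and a level of 0.41, -0.17 and 0.37 against -0.34, -0.49 and 0.048. The part of these cell types in the result on the cilium genes was not tested. In tissue of this kind, fewer ciliated cells in a sample and less RNA per cell cannot be told apart.

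**Figure D4:**
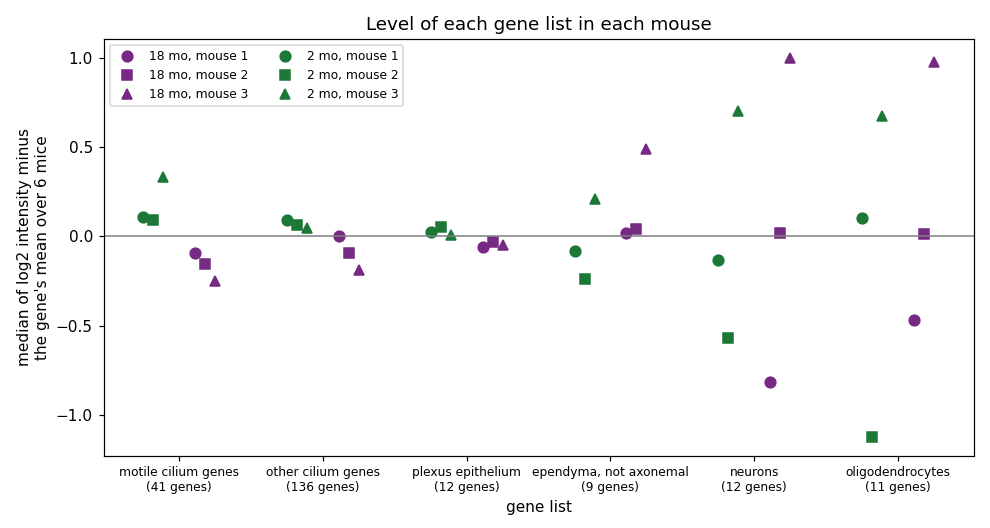
Level of each gene list in each mouse (y axis, median over the list's tested genes of log2 intensity minus the gene's mean over the 6 mice; green, 2 months; purple, 18 months; symbols give the mouse). The motile cilium genes are below 0 in all 3 mice at 18 months and above 0 at 2 months, and so, by less, are the plexus epithelium markers. Neuron and oligodendrocyte markers are highest in mouse 3 of both ages.

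A wider list of cilium genes outside the 45 had smaller differences in the same direction. It held 146 genes with a probe set, of which 136 were tested. Their median difference was -0.18, 91 of 136 were below 0, and 30 had separate ages with the older mice below (against 6.25% of all genes tested). At an unadjusted p under 0.05, 12 were lower (against 3.03%) and 1 was higher (against 4.02%). Without mouse 1 at 2 months 7 of 136 were lower, against 2.68% of all genes in that fit. At a limma adjusted p under 0.05, 0 were called. The level over these genes was 0.0027, -0.092 and -0.19 at 18 months against 0.094, 0.062 and 0.047 at 2 months.

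Within the wider list the axonemal and tip proteins held 9 of the 12 lower genes, among 44 tested (median -0.26). Cfap53, a protein of the doublet interior, had 6.28, 6.12 and 6.58 at 18 months against 7.36, 7.07 and 7.09 at 2 months (difference -0.85, SE 0.19, limma adjusted p = 0.491). Cfap43 had 7.84, 7.87 and 7.89 against 8.21, 8.51 and 8.56 (difference -0.56, SE 0.17). Among 15 other spoke, regulatory complex and central apparatus genes (median -0.35), 2 were lower. These were the spoke gene Rsph3a (-0.72, SE 0.24), whose probes may also read its paralog, and Ccdc65 of the nexin-dynein regulatory complex (-0.46, SE 0.19). Among 15 dynein assembly and docking factors (median -0.11), Armc4 of the outer-arm docking complex differed by -0.80 (SE 0.30) and the assembly factor Zmynd10 by -0.34 (SE 0.17).

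For 35 other intraflagellar transport genes the median difference was -0.17, with 24 below 0 and 0 lower or higher at an unadjusted p under 0.05. Smallest in p were Bbs9, a subunit of the BBSome that moves cargo along cilia (-0.58, SE 0.24), and Ift57 (-0.60, SE 0.27). Other regulators and basal body genes had a median of -0.080 over 23 genes, with 0 lower and 1 higher, Sfi1 (0.78, SE 0.28), while Deup1, which builds centrioles in multiciliated cells, differed by -0.81 (SE 0.38) and was tested only through its level at 2 months, its mean at 18 months of 4.70 being under the filter. The 4 other dynein genes tested, among them Dnal4 (-0.25, SE 0.22) and Dnah17 (0.15, SE 0.18), had a median of 0.043. Dnah7a, Dnah8 and Dnah12, below the filter, gave -1.10, -1.41 and -0.089.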

How the data were processed

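Total RNA was extracted with miRNeasy, amplified with a Nugen Pico kit and hybridised to Affymetrix arrays, per the labels' protocols; amplification can distort dim transcripts. The authors deposited intensities for 45037 probe sets that are not controls, made with RMA per the submitters' processing notes (version not given in the sources used here); the deposited intensity values are linear, from 2.47 to 26820.7. Here their log2 was taken, the probe set with 1 symbol and the highest mean stood for a gene, and genes at or above the 40th percentile (4.92) were compared with the limma package (version 3.58.1, R version 4.3.3; lmFit and eBayes, two-sided, no covariates, 6.61 degrees of freedom), with Benjamini-Hochberg adjustment over 12681 genes and a threshold of 0.05. Errors are the fit's SE or the SD of 3 mice. Precision is limited by the small number of arrays, whose medians were even (5.56 to 5.65), and levels of different genes are not compared, since probes differ in brightness.

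Per-mouse values were given for the regulators, the intraflagellar transport genes and up to 4 tested members of each other class with the smallest p, and up to 2 genes of each wider list were named by the same measure. Members, lists and tests were chosen with earlier results of these data known, and the promoter patterns after the array values were seen. The fit was tested on simulated data. Alternatives were other filters, the mean of probe sets, other normalizations, array weights, a neuron covariate, a replicate block, an ordinary 2-sample test and leaving out mice. Deviations of same-numbered mice from their age mean correlated at -0.02, 0.02 and 0.17, and those of differently numbered mice at -0.15 to 0.14. The numbers were not taken to pair mice, but with so few mice this check cannot exclude a pairing.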

Additional observations from a re-analysis of the deposited data

How the results depend on the processing

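Genes called over all genes tested numbered 4 with a 60th percentile filter, 4 with array weights, 5 with the mean of all probe sets, 5 with median centring and 1 with the neuron covariate, none of them a cilium member; in all other settings run the count was 0. The median difference of the members stayed below 0 in every setting, from -0.47 to -0.30 with 1 mouse left out. The count of members lower at an unadjusted p under 0.05 was 8 to 13 with 1 mouse left out. The share of all genes in those fits was 2.31% to 3.19%. By the ordinary 2-sample test 7 members were lower, against 2.74% of all genes. The count of the other cilium genes was 7 to 11, among 135 to 137 tested, in the same fits with 1 mouse left out. The share of all genes there was again 2.31% to 3.19%. Of 444 alternative values for 30 named members, 8 reversed and 0 passed the threshold. That total includes settings that could not reverse a sign or hardly could. The other filters and the replicate block leave each difference as it was, and median centring shifts all genes by the same small amount. With 1 mouse left out, Ift88 ranged from -0.19 (without mouse 1 at 18 months; -0.13 without mouse 3 at 2 months) to 0.18, Ift172 from -0.0094 to 0.29, Tmem212 from -1.22 to 0.14 and Tekt1 from -0.34 to 0.024. With mouse 3 at 18 months and mouse 2 at 2 months both left out, Tekt1 gave 0.13 and Dnaic2 0.015. Spag16 gave 0.032 with the mean of all probe sets. For each reversal the cause was not tested. With the replicate number as a block, 12 members were lower at an unadjusted p under 0.05, against 3.09% of all genes in that fit. With as many mice at each age in every block, the differences cannot change, so the median stayed at -0.46. In that fit 0 genes were called, so the block changed no call. The wider list's counts and the fit of each probe set on its own were chosen after seeing the data. In the latter, 12 of 52 member probe sets were lower at an unadjusted p under 0.05, against 2.8% of all those fitted. Members near background, such as Hydin and Fam183b, have differences limited by signal over background.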

Other observations

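Some genes of the cilium lists had a high value in a single mouse. In mouse 2 at 2 months Ak7 was at 12.39, with 8.33 to 9.17 in the other 5 mice, and Dync2h1, the motor of retrograde intraflagellar transport, at 9.89, with 6.82 to 7.76 in the others. In mouse 1 at 18 months Ruvbl1, a chaperone component used in dynein assembly, was at 10.29, with 7.49 to 7.88 in the others. Each of these genes had 1 probe set with a single symbol, so that no second probe set was compared. These genes were chosen after their values were seen.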
